A study of Mus musculus with 103 samples.

Results

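The genes described here are 40 listed genes of glycolysis and of the response to low oxygen, followed through a mouse atlas of early head and face tissue. They were chosen by name, and each took its values from probe sets annotated with that symbol alone. Among several such probe sets for a symbol, that of highest mean log2 ratio over the libraries was used. Of the 40 genes, 37 were measured, among 19938 genes tested. Gapdh lay on probe sets annotated with several genes, and Gpi1 and Eno1 matched no probe set by symbol, so these 3 were not analysed here.

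Glycolysis splits glucose into pyruvate, and lactate dehydrogenase turns pyruvate into lactate when oxygen is short or when cells divide fast. Under low oxygen the subunit HIF-1alpha escapes the prolyl hydroxylases that mark it for destruction, pairs with its partner ARNT and binds DNA at a short core motif, raising the transcription of glucose transporters, glycolytic enzymes and genes such as Vegfa, Bnip3 and Adm. The early mammalian embryo develops in low oxygen before its own circulation is established, and rapidly dividing embryonic tissue is known for strong glycolysis.

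RNA was profiled on a whole-transcript Affymetrix array in tissue cut by laser capture from frozen sections of CD1 mouse embryos, an outbred strain, at E8.5, E9.5 or E10.5, which count days of embryonic life. The RNA of each capture was amplified before hybridisation, and the labels name no mutation or treatment. Of 103 samples, 102 had a group, with 18 at E8.5, 34 at E9.5 and 50 at E10.5. One E9.5 sample carried conflicting region labels and entered no group.

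At E8.5 the groups were caudal neural epithelium (4 libraries), floor plate neural epithelium (4), non-floor plate neural epithelium (5) and mesenchyme (5). At E9.5 they were neuroepithelium (5), cranial mesenchyme (6), epidermal ectoderm (7), mandibular arch (5), maxillary arch (5) and otic vesicle (6). At E10.5 neural tissue was represented by the central midline, by neuroepithelium underlying the lateral or the medial nasal prominence, and by a control region away from the facial eminences, with 4 libraries each. The other E10.5 groups were lateral nasal eminence (4), medial nasal prominence (4), mandibular arch (4), maxillary arch (5), the ectoderm of each arch (4 each), olfactory pit (4) and Rathke's pouch (5). For the underlying medial group, the titles said lateral while the other labels said medial, and the latter were followed.

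The deposited value is a ratio to a baseline that the values show to be the median of 21 of the samples. Every value below is log2 of that ratio, so libraries can be compared for 1 gene, but a level cannot be compared between genes. The labels do not say which captures shared an embryo, so p-values measure the spread between these samples and may be too small, and the number of arrays limits the precision. In bulk tissue, fewer cells of a type and less RNA per cell cannot be told apart. The lower tail of the arrays differed between groups: the 5th percentile of log2 ratio over all genes ran from -3.53 to -0.28 between arrays, with a median of -0.64, and its group median was lowest in Rathke's pouch, E10.5 maxillary arch ectoderm and the nasal groups.

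Neural markers had group medians of 0.57 to 1.80 in the neural groups. Surface ectoderm markers were also raised in E8.5 non-floor plate neural epithelium, with a median of 0.72 and a range of -0.08 to 0.93. Their medians in the other neural groups lay between -0.50 and -0.06. The part of ectoderm in the neural differences was not tested. Mesenchyme markers had medians of 1.30 to 2.03 in the E8.5 mesenchyme, E9.5 cranial mesenchyme and nasal prominence groups. The E10.5 mandibular arch ectoderm went against its label, with surface ectoderm markers between -0.22 and 0.07 and mesenchyme markers between 1.14 and 1.78. The E10.5 maxillary arch carried surface ectoderm markers, with a median of 1.21 and a range of -0.47 to 2.21. Neither group enters a contrast below, but both count among the 22 groups. The E10.5 mandibular arch ectoderm replicates 1 and 3 were the most alike pair of arrays (r = 0.95).

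Promoters are shown for genes on which the results turn, because the core letters bound by HIF can be read in them. The windows run from 250 bases before to 50 after the transcription start (RefSeq, build GRCm38), 5′ to 3′ on the strand of the gene. Capitals mark ACGTG or GCGTG read on either strand (CACGT or CACGC when on the opposite strand), and CACGTG holds ACGTG on both strands and counts as 2. Slc2a1 (chr4:119108495-119108794, + strand), Slc16a3 (chr11:120948817-120949116, + strand), Bnip3 (chr7:138909457-138909756, - strand), P4ha1 (chr10:59323046-59323345, + strand) and Adm (chr7:110627407-110627706, + strand) hold matches, and Tpi1 (chr6:124814109-124814408, - strand) is set beside them as a window with none.
Slc2a1: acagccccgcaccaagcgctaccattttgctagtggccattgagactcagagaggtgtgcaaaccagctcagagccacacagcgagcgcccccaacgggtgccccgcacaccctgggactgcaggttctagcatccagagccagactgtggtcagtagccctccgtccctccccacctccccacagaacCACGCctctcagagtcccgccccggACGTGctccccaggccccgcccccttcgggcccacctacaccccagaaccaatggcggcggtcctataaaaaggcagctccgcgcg
Slc16a3: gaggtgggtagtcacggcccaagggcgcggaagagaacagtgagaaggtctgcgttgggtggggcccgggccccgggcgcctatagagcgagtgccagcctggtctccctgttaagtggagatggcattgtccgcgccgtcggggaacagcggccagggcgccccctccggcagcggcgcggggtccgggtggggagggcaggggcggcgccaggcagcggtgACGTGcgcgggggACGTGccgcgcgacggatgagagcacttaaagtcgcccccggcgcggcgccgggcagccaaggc
Bnip3: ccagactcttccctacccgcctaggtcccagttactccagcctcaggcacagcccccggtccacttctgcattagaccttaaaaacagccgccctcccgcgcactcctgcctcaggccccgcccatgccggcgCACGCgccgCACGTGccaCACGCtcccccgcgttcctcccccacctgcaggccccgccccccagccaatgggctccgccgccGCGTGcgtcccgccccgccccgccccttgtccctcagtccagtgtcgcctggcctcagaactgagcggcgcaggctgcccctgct
P4ha1: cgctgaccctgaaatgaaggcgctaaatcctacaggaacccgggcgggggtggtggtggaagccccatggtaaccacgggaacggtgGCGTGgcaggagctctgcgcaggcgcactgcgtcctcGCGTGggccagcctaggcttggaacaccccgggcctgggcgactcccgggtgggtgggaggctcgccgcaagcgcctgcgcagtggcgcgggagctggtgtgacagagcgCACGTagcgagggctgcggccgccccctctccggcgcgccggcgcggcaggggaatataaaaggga
Adm: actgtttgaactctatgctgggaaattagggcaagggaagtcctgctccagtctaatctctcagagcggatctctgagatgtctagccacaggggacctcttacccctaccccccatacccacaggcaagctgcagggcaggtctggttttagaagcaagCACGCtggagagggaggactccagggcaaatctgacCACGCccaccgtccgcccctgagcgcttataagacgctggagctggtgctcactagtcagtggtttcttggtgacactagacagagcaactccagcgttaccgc
Tpi1: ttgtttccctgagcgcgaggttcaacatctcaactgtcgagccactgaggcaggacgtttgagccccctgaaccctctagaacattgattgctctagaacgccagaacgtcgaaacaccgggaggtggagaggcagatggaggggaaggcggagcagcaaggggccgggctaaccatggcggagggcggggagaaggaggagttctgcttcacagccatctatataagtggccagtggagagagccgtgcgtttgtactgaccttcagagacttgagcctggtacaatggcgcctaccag

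The Bnip3 window held 5 matches, the first of them beginning 117 bases before the start. P4ha1 held 3 matches. In Slc16a3 both matches read ACGTG on the gene's own strand and began 27 and 14 bases before the start. In Slc2a1 the matches began 61 and 36 bases before the start, and both matches of Adm read CACGC, at 90 and 54 bases before it. Promoters were found for 33 of the 37 measured genes, with 47 windows in all. Of these windows, 37 (78.7%) held a match, against 43.8% of all 32851 promoters of that length, and ACGTG alone was in 57.4% of them against 19.6% of all promoters. The genes were listed for glycolysis and the response to low oxygen, so a larger share can follow from that choice and is not a result of these data. Base composition was not matched. A match describes letters in a window, not a site that was bound in these tissues.

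The highest group means of the set lay mostly at E8.5. The groups of that stage were neural epithelium and mesenchyme only, so stage and tissue cannot be told apart here. The median of the 37 genes had group medians of 0.30 to 0.69 in the E8.5 groups. The same measure was 0.35 in the E9.5 mandibular arch and 0.28 in the E9.5 maxillary arch. For 25 of the 37 genes (67.6%) the highest group mean was in an E8.5 group, against 33.7% of all genes tested, although only 4 of the 22 groups were from that stage. For 32 of them (86.5%) the lowest group mean was at E10.5, against 69.2% of all genes. In limma's moderated F test across the 22 groups, 31 of 37 genes varied at an adjusted p under 0.05, where 59% of all genes did. Hk2 and Pfkfb3, which act at and around the committed steps of glycolysis, and Aldoc, Egln3, Car9 and Ndrg1 did not pass.

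**Figure D1:**
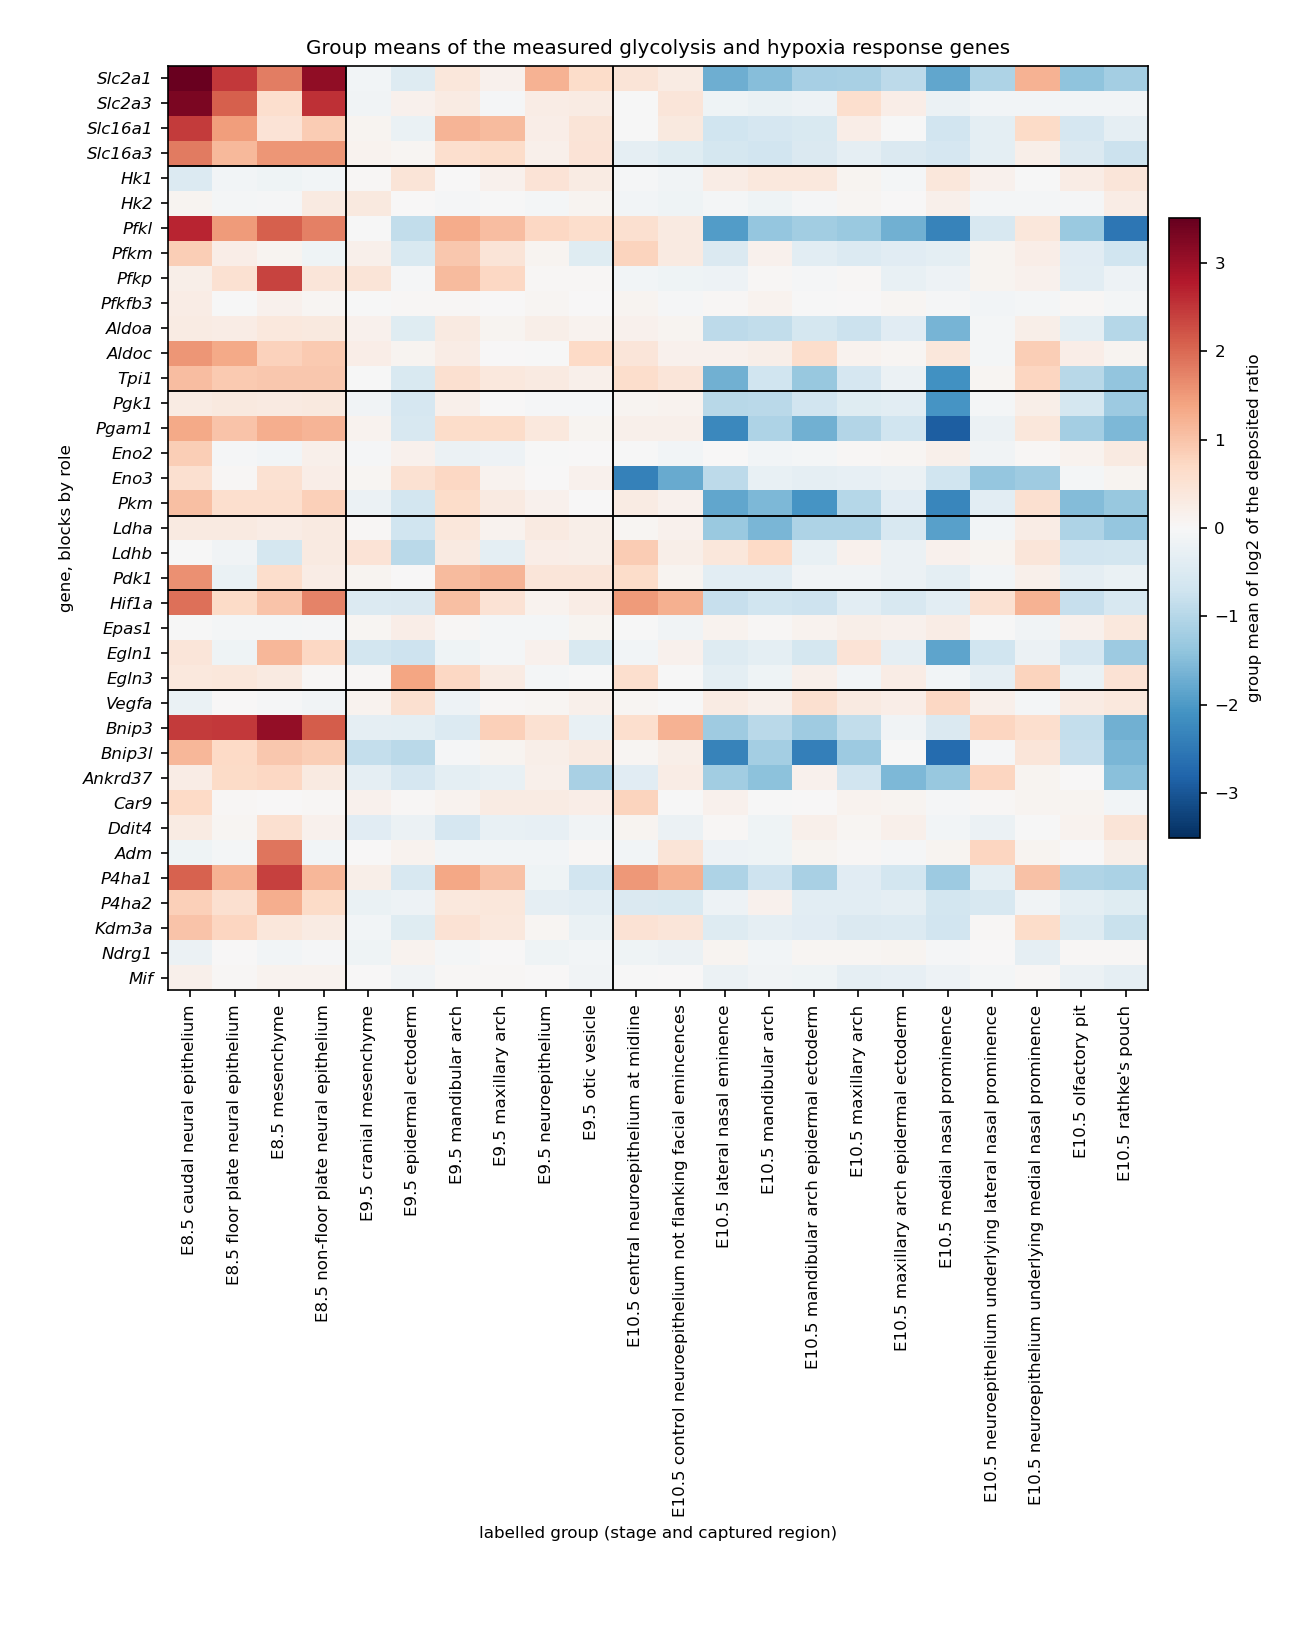
Group means of log2 ratio for the 37 measured genes (rows, in blocks by role: transporters, first steps, later steps, pyruvate and lactate, oxygen sensing, hypoxia response) in the 22 labelled groups (columns, with lines between stages). Slc2a1 runs from 3.46 in E8.5 caudal neural epithelium to -1.82 in the E10.5 medial nasal prominence, while Pfkp and Adm have their highest means in E8.5 mesenchyme.

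The widest range between group means was that of Slc2a1, the widely used glucose transporter GLUT1. Its mean was 3.46 ± 0.22 (SD, n = 4) in E8.5 caudal neural epithelium and -1.82 ± 0.30 (SD, n = 4) in the E10.5 medial nasal prominence, a 38.8-fold difference. The next highest mean, in E8.5 non-floor plate neural epithelium, was 3.09 ± 0.21 (n = 5). Pfkl, a subunit of phosphofructokinase, ranged 36.7-fold, from 2.66 ± 0.29 in the same caudal tissue to -2.54 ± 1.01 in Rathke's pouch (n = 5). Bnip3, which promotes the removal of mitochondria, had its highest mean in E8.5 mesenchyme at 3.08 ± 0.39 (n = 5) and its lowest in Rathke's pouch at -1.68 ± 0.38, a 27.2-fold difference. The pattern was not shared by every hypoxia gene: Vegfa, the main growth factor for new vessels, had its lowest mean in the caudal neural epithelium, at -0.23 ± 0.04, and its highest in the medial nasal prominence, at 0.71 ± 0.22. Epas1, which encodes HIF-2alpha, peaked in Rathke's pouch at 0.37 ± 0.40. Mif, an inflammatory cytokine gene, kept to a narrow span, from -0.32 ± 0.37 in the E10.5 maxillary arch, whose label is in doubt, to 0.18 ± 0.06 in caudal neural epithelium.

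Transcripts of the glucose and lactate transporters were lower in neural epithelium at E10.5 than at E8.5. The neural regions compared also differ between the stages. They are caudal, floor plate and non-floor plate tissue at E8.5, and midline, control and underlying neuroepithelium at E10.5. Stage and region therefore cannot be told apart. Caudal tissue, which has no E10.5 group, held the highest group mean of each of the 4 transporters. All 4 transporters fell, and of the 37 genes 11 fell and none rose, where 8.09% of all genes were called, 5.79% as lower and 2.29% as higher. The 11 were the 4 transporters, Pfkl and Aldoc among the first steps of glycolysis, Pgam1, Eno2 and Eno3 among the later steps, and Bnip3 and P4ha2. The median difference was -2.16 for the transporters and -0.31 for the 37 genes, against -0.04 for all genes.

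Slc2a3 encodes GLUT3, a high-affinity glucose transporter. In caudal neural epithelium at E8.5 its log2 ratios were 2.99, 3.10, 3.84 and 3.27, in non-floor plate 2.79, 2.56, 2.93, 2.52 and 1.98, and in floor plate 1.23, 0.26, 2.95 and 3.90. At E10.5 the 16 neural libraries had a lowest of -0.38, a median of 0.00 and a highest of 1.48. The floor plate was the most uneven group, its replicates 1 and 2 lying below the range of the other E8.5 neural libraries, and the highest E10.5 library, replicate 4 of the control neuroepithelium, overlapped with these. By limma Slc2a3 fell by 2.59 on the log2 scale (SE 0.20, adjusted p = 2.5e-18), a 6.03-fold decrease. Most of this difference was already present at E9.5, when the 5 neuroepithelium libraries read 0.94, 0.00, 0.11, 0.34 and -0.07. The fall from E8.5 to E9.5 was 2.38 (SE 0.28, adjusted p = 1.5e-09).

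Slc2a1 had a lowest of 1.18, a median of 3.12 and a highest of 3.73 over the 13 E8.5 neural libraries. At E9.5 the values were 1.84, 0.42, 1.08, 1.19 and 1.55, and at E10.5 they had a lowest of -2.14, a median of 0.43 and a highest of 1.87. Among the E10.5 libraries, neuroepithelium underlying the medial prominence read 1.30, 1.87, 1.67 and 0.07, and that underlying the lateral prominence 1.30, -1.55, -1.94 and -2.14. Replicate 1 was the 1 lateral library within the medial range, and this difference between regions was not tested. Slc2a1 fell by 2.78 from E8.5 to E10.5 (SE 0.37, adjusted p = 2.0e-08), 6.88-fold. Its difference from E8.5 to E9.5 was -1.79 ± 0.52 and did not pass (adjusted p = 0.055).

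The monocarboxylate transporters Slc16a1 (MCT1) and Slc16a3 (MCT4) carry lactate across the cell membrane. Slc16a3 had a lowest of 0.48, a median of 1.52 and a highest of 2.11 in the E8.5 neural libraries and read 0.41, 0.00, 0.41, -0.39 and 0.48 at E9.5. The highest E9.5 library lay just below the lowest E8.5 library. Slc16a3 was the 1 gene of the set whose E8.5 and E9.5 neural libraries did not overlap, as was so for 1.03% of all genes. It fell by 1.32 to E9.5 (SE 0.25, adjusted p = 4.2e-04) and by 1.72 to E10.5 (SE 0.18, adjusted p = 1.9e-12). Slc16a1 had a lowest of 0.09, a median of 1.35 and a highest of 2.98 at E8.5, its highest values being those of the caudal tissue (1.73, 2.86, 2.98 and 2.20), and read 0.72, 0.03, 0.37, 0.06 and 0.00 at E9.5. The ranges overlapped through the lower non-floor plate libraries. Slc16a1 fell by 1.36 to E9.5 (SE 0.38, adjusted p = 0.04), a call lost when any of 10 of the 18 libraries was left out, and by 1.43 to E10.5 (SE 0.27, adjusted p = 7.5e-05).

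**Figure D2:**
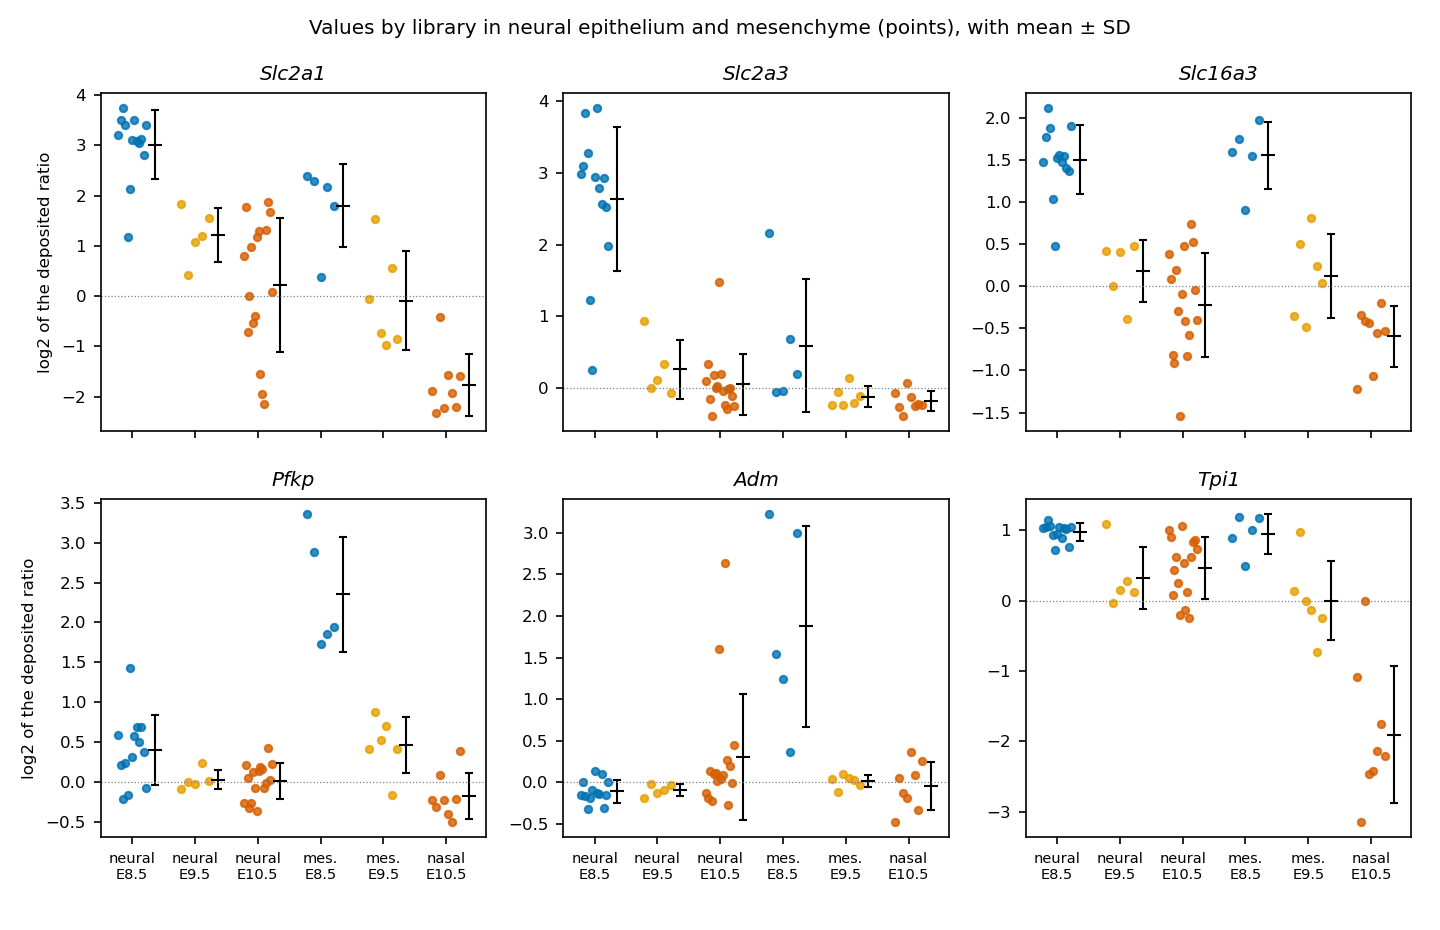
Log2 of the deposited ratio in each library (points) of neural epithelium and mesenchyme (mes.; nasal, the lateral nasal eminence and medial nasal prominence) for 6 genes, with the mean ± SD of the libraries to the right of each set. The E8.5 values of the 3 transporters lie mostly above those of later stages, Pfkp and Adm are high in the 5 E8.5 mesenchyme libraries, and Tpi1 falls to -3.14 in nasal tissue.

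Between E8.5 and E9.5 in neural tissue, 3 of the 37 genes fell and 1 rose, where 1.58% of all genes were called. The 3 that fell were transporters. The gene that rose was Hk1, a hexokinase, by 0.70 (SE 0.18, adjusted p = 0.018), from a lowest of -0.66, a median of -0.27 and a highest of 0.60 in 13 libraries to 0.73, 0.01, 0.62, 0.38 and 0.61. A different Hk1 probe set, whose values were unrelated over the libraries (r = -0.01), gave a difference of -0.10 (adjusted p = 0.83), so the change rests on 1 probe set, and the call was lost without E9.5 neuroepithelium replicate 1, 3 or 5. Between E9.5 and E10.5, 1 gene fell and none rose, where 0.622% of all genes were called. It was Eno3, the muscle-type enolase, which read 0.37, 0.54, 0.07, -0.84 and -0.12 at E9.5 and had a lowest of -4.12, a median of -1.21 and a highest of -0.19 over the 16 libraries at E10.5. Its lowest values were in midline replicates 2 and 4, at -4.12 and -4.06, and the other 2 midline libraries read -0.60 and -0.63. Eno3 fell by 1.69 (SE 0.38, adjusted p = 0.0082), a call lost without E9.5 neuroepithelium replicate 2, and by 1.96 from E8.5 to E10.5 (SE 0.28, adjusted p = 1.0e-07).

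Among the other enzymes, Pfkl had a lowest of 0.86, a median of 2.09 and a highest of 3.01 at E8.5 and a lowest of -1.49, a median of 0.14 and a highest of 1.51 at E10.5. It fell by 1.79 (SE 0.39, adjusted p = 8.6e-04), with overlap between the stages. The phosphoglycerate mutase gene Pgam1 fell by 1.03 (adjusted p = 0.021), the aldolase gene Aldoc by 0.92 (adjusted p = 0.017) and the neuronal enolase gene Eno2 by 0.38 (adjusted p = 0.0077), a call lost without caudal replicate 1. The isomerase gene Tpi1, with -0.51 ± 0.22 (adjusted p = 0.15), Pgk1, with -0.23 ± 0.16, and Ldha, with -0.22 ± 0.21, did not pass in neural tissue. Nor did any of the 4 oxygen-sensing genes: Hif1a, which encodes the oxygen-labile HIF subunit, differed by -0.31 ± 0.30 and its hydroxylase Egln1 by -0.54 ± 0.30. Of 12 hypoxia response genes, Bnip3 fell by 1.56 (SE 0.42, adjusted p = 0.0086) and P4ha2, a collagen prolyl hydroxylase, by 1.11 (SE 0.23, adjusted p = 4.0e-04). A different Bnip3 probe set gave -0.89 (adjusted p = 0.00065).

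Red cell markers moved with stage in these captures. The mean of the 9 measured erythroid markers had a median of -2.21 in the E8.5 neural libraries, with a range of -2.54 to -1.76, a median of -0.46 at E9.5 and of 0.05 at E10.5. Their part in the differences was not tested. The 5th percentile of the arrays had medians of -0.40, -0.48 and -0.57 at the 3 stages. With that percentile as a term in the fit, 11 of the 37 genes were called between E8.5 and E10.5, and 7 between E8.5 and E9.5, with Slc2a1 (-1.72, adjusted p = 0.016) among them.

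Within E8.5 neural tissue, caudal neural epithelium stood above the non-floor plate tissue in Slc2a3 and Slc16a1, whose libraries did not overlap, as was so for 5.71% of all genes, but neither passed. The differences were 0.74 ± 0.36 (adjusted p = 0.61) and 1.56 ± 0.48 (adjusted p = 0.094). The 1 gene called of 37, where 1.42% of all genes were, was Eno2, at 2.30, 0.16, 0.80 and 0.19 in caudal and 0.80, -0.10, -0.06, 0.22 and -0.01 in non-floor plate tissue. The caudal group's first replicate set the upper end, and the ranges overlapped. Eno2 was higher by 0.69 (SE 0.18, adjusted p = 0.021), a call lost without caudal replicate 1 or any of non-floor plate replicates 2, 3 and 5.

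More of the set was called in mesenchyme. From E8.5 mesenchyme to the E10.5 lateral nasal eminence and medial nasal prominence, 25 of 37 genes fell and 2 rose, where 29% of all genes were called, 22.2% as lower and 6.74% as higher. The regions compared are not the same at both stages, since the labels give mesenchyme at E8.5, cranial mesenchyme at E9.5 and nasal tissue at E10.5. The median difference of the 37 genes was -1.33 against -0.08 for all genes, and for 18 of the 37 the 5 E8.5 and 8 E10.5 libraries did not overlap, where 11.3% of all genes had no overlap. By role, 4 of 4 transporters, 4 of 9 genes of the first steps, 4 of 5 of the later steps, 2 of 3 pyruvate and lactate genes, 2 of 4 oxygen-sensing genes and 9 of 12 hypoxia response genes fell.

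Pfkl showed the largest fall. It read 2.07, 1.98, 1.49, 2.21 and 2.72 in the 5 E8.5 libraries, -2.84, -2.32, -0.18 and -2.53 in the lateral nasal eminence and -2.94, -2.67, -2.11 and -1.59 in the medial nasal prominence. The stages did not overlap, and lateral replicate 3 was the least low of the 8 nasal libraries. Pfkl fell by 4.24 (SE 0.60, adjusted p = 2.1e-07), 18.9-fold. Bnip3 read 3.22, 3.44, 2.65, 3.43 and 2.68 at E8.5, -1.82, -1.91, 0.21 and -1.43 in lateral and -2.03, -0.56, 0.57 and 0.05 in medial nasal tissue. It fell by 3.95 (SE 0.64, adjusted p = 4.8e-06), 15.4-fold, again without overlap, and the different Bnip3 probe set gave -1.94 (adjusted p = 9.7e-07).

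Pgam1 read 1.04, 1.54, 1.09, 1.25 and 1.41 at E8.5, -1.72, -3.29, -0.08 and -3.90 in lateral and -2.79, -4.96, -1.87 and -1.96 in medial nasal tissue, and fell by 3.84 (SE 0.47, adjusted p = 2.9e-09), 14.3-fold. Here too the stages were separate, and lateral replicate 3 stood above the other nasal libraries. The 5th percentile of that array, -0.31, was the highest of the 8. Pgam1, Pgk1 and Mif each had 3 probe sets under their symbols, with correlations of 0.94 to 1.00 between them, and could share signal with near-identical copies, so the locus behind these values is uncertain.

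Of the remaining enzymes, Tpi1 fell by 2.85 (adjusted p = 9.6e-10), the pyruvate kinase gene Pkm by 2.66, Pfkp by 2.53, Pgk1 by 1.82, Aldoa by 1.65 and Eno3 by 1.33. Ldha, which favours lactate formation, fell by 1.85 (SE 0.32, adjusted p = 2.4e-05), and Pdk1, the kinase that restrains pyruvate dehydrogenase, by 0.96 (adjusted p = 0.049). Ldhb, the heart-type subunit, rose by 0.88 (SE 0.34, adjusted p = 0.039), but a different Ldhb probe set had the opposite sign, at -0.28 (adjusted p = 0.71). Hk1, Hk2, Pfkm, Pfkfb3, Aldoc and Eno2 did not pass, with differences between -0.53 for Aldoc and 0.47 for Hk1.

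All 4 transporters fell in mesenchyme. Slc2a1 read 2.38, 2.28, 0.38, 2.16 and 1.78 at E8.5 and had a lowest of -2.34, a median of -1.91 and a highest of -0.43 in nasal tissue. It fell by 3.57 (SE 0.56, adjusted p = 3.2e-06), 11.9-fold, and the stages did not overlap. Slc16a3 fell by 2.15 (SE 0.27, adjusted p = 6.4e-09) and Slc16a1 by 1.17 (adjusted p = 0.024). Slc2a3 fell least, by 0.78 (adjusted p = 0.046), and its E8.5 values of 2.17, -0.05, -0.05, 0.69 and 0.20 were already low in 4 of the 5 libraries.

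Among oxygen-sensing genes, Egln1 fell by 2.31 (SE 0.46, adjusted p = 1.6e-04) and Hif1a by 1.59 (SE 0.45, adjusted p = 0.006). The median of Hif1a was 1.28 at E8.5 and -0.72 at E10.5, and the stages overlapped. Epas1 (0.25 ± 0.11, adjusted p = 0.07) and Egln3, another HIF hydroxylase (-0.53 ± 0.42, adjusted p = 0.35), did not pass.

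In the hypoxia response, the collagen prolyl hydroxylase gene P4ha1 read 2.03, 2.51, 2.04, 2.58 and 2.75 at E8.5 and had a lowest of -1.70, a median of -1.53 and a highest of 0.46 in nasal tissue. The stages did not overlap, and P4ha1 fell by 3.56 (SE 0.57, adjusted p = 3.5e-06), 11.8-fold. Bnip3l, a relative of Bnip3 with the same role, fell by 3.47 (SE 0.63, adjusted p = 4.1e-05), with nasal values spread from -4.36 to -0.09. Ankrd37 fell by 1.99, Adm by 1.92, P4ha2 by 1.67, the histone demethylase gene Kdm3a by 0.96, the mTOR inhibitor gene Ddit4 by 0.58 and Mif by 0.32. Vegfa went the other way. It had a lowest of -0.21, a median of -0.04 and a highest of 0.12 at E8.5 and a lowest of 0.00, a median of 0.57 and a highest of 0.89 at E10.5, overlapping at their ends, and rose by 0.54 (SE 0.16, adjusted p = 0.009). Car9, a carbonic anhydrase (0.06 ± 0.26), and Ndrg1 (0.12 ± 0.13) did not pass.

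**Figure D3:**
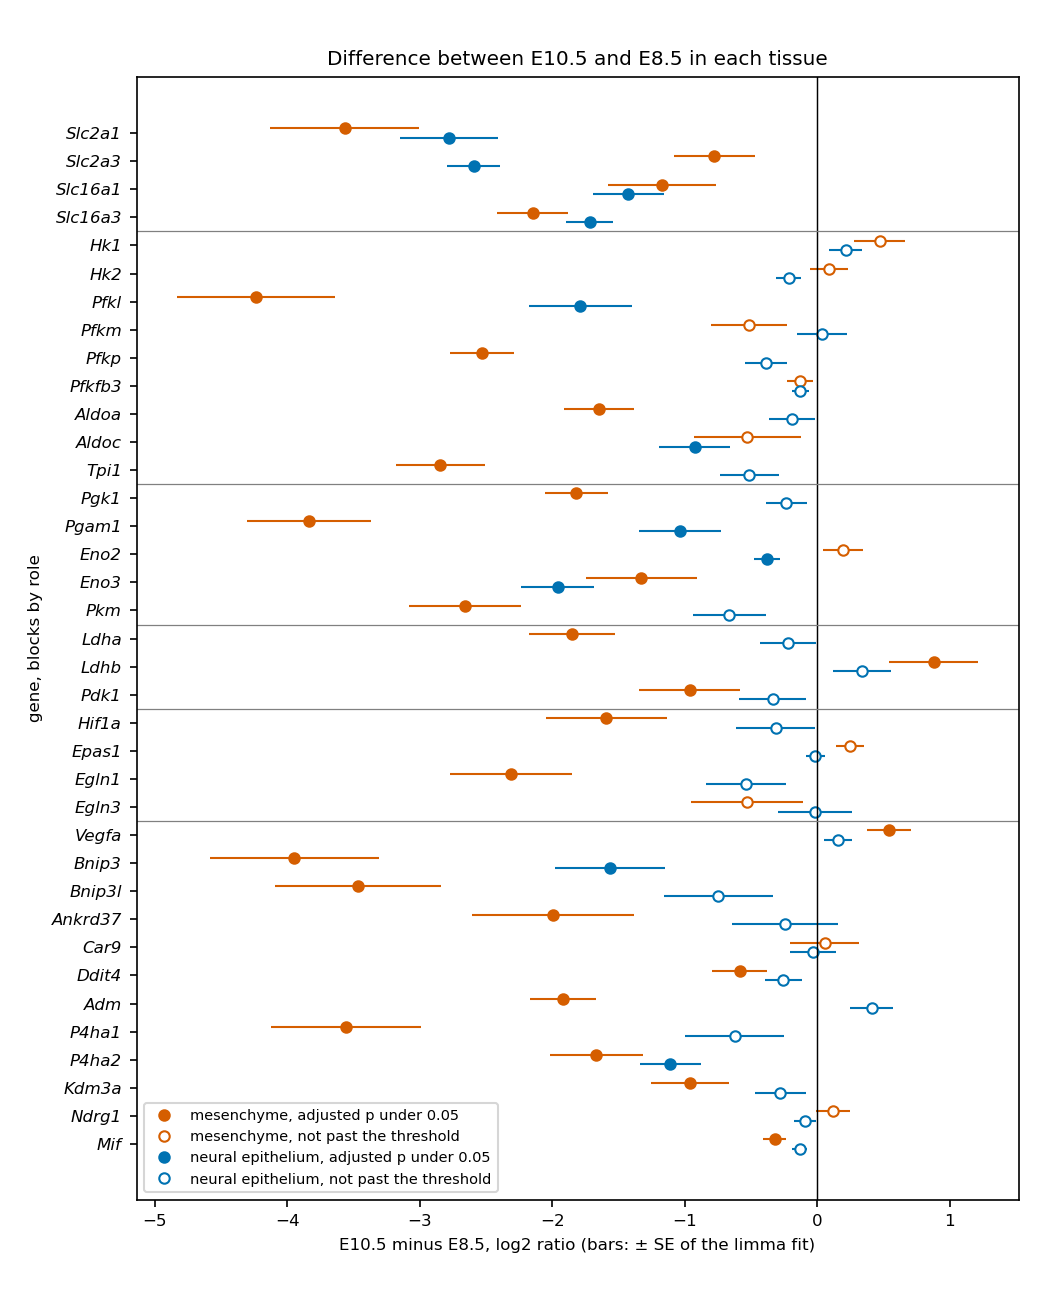
Difference in log2 ratio between E10.5 and E8.5 for each of the 37 genes (rows, in blocks by role), with its standard error, in mesenchyme and neural epithelium. Filled points passed limma at an adjusted p under 0.05: 27 genes in mesenchyme and 11 in neural epithelium, with Pfkl at -4.24 in mesenchyme as the largest.

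The lower tail of the arrays moved with this comparison. The 5th percentile had a median of -0.36 in the 5 E8.5 mesenchyme arrays, with a range of -0.52 to -0.35, and of -1.63 in the 8 nasal arrays, with a range of -2.90 to -0.31. With it as a term, 15 genes fell and 1 rose. Pfkl then differed by -2.81, Bnip3 by -2.95, Pgam1 by -2.48, Slc2a1 by -2.38 and P4ha1 by -2.34, while Pfkp (-2.33), Adm (-2.09) and Slc16a3 (-1.97) moved little. No longer called were Vegfa (0.08, adjusted p = 0.78), the transporters Slc2a3 and Slc16a1, the oxygen-sensing genes Hif1a and Egln1, and Pdk1, Eno3, Ankrd37, Kdm3a, Ddit4 and Mif. Leaving out 1 library ended the calls of Slc2a3 and Pdk1 for 9 of the 13 libraries, of Ldhb for 7 and of Ddit4 for 3. The calls of Hif1a and Kdm3a were lost without E8.5 mesenchyme replicate 5, and that of Slc16a1 without replicate 4. The mean of the erythroid markers had medians of -1.54 in E8.5 mesenchyme, 0.76 in E9.5 cranial mesenchyme and 0.29 in nasal tissue, 7 of 9 being higher at E10.5 than at E8.5. That of 12 endothelial markers had medians of 1.25, 0.62 and 0.26, and 8 of 12 fell. The mean of the macrophage markers ran from -0.17 to 0.11 in E8.5 mesenchyme and from 0.39 to 1.18 in nasal tissue. The part of these cell types in the result was not tested.

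**Figure D4:**
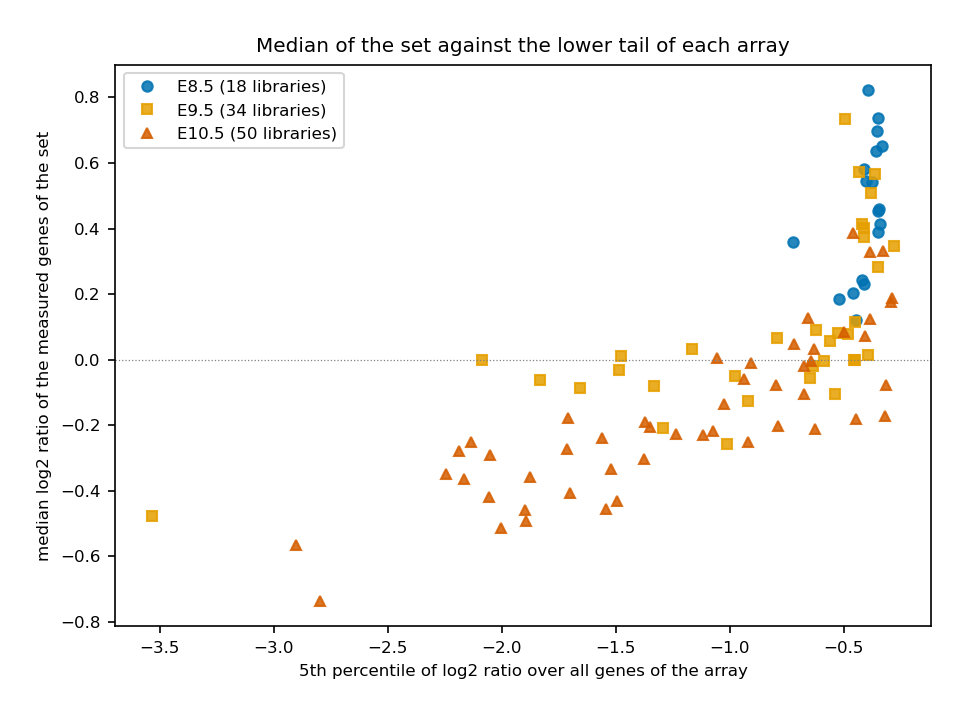
Median log2 ratio of the 37 genes in each of 102 libraries (vertical) against the 5th percentile of log2 ratio over all genes of the same array (horizontal), by stage. Arrays with a low 5th percentile, down to -3.53, mostly have a median of the set below 0, and the E8.5 arrays lie at the upper right, between 0.12 and 0.82 in caudal, floor plate, non-floor plate and mesenchyme tissue.

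At the threshold used, different genes were called at the earlier and the later step in mesenchyme, with none in both. Between E8.5 mesenchyme and E9.5 cranial mesenchyme, 8 of 37 genes fell and none rose, where 1.53% of all genes were called. They were Bnip3, P4ha1, Pfkp, Adm, Egln1, P4ha2, Slc16a3 and Ddit4, 5 of them hypoxia response genes. For 9 of the 37 the libraries of these stages did not overlap, where 2.47% of all genes had no overlap. Between E9.5 and E10.5, 7 of 37 fell and none rose, where 3.96% of all genes were called, 3.26% as lower. These were Pgam1, Pfkl, Tpi1, Pkm, Ldha, Aldoa and Pgk1, all of them enzymes between glucose and lactate, and no hypoxia response gene was among them. The E9.5 libraries are shared by the 2 comparisons, and the difference between them was not tested. Cranial mesenchyme alone stood for E9.5 here. The median of the 37 genes had group medians of 0.46 in E8.5 mesenchyme and -0.02 in E9.5 cranial mesenchyme. It was 0.35 and 0.28 in the E9.5 mandibular and maxillary arches, where mesenchyme markers had medians of 2.07 and 1.81. The arches were not compared with E8.5 mesenchyme, and stage and region cannot be told apart.

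Bnip3 read 1.05, 1.59, -0.87, -1.80, -0.04 and -1.82 in the 6 E9.5 libraries, all below the lowest E8.5 value of 2.65, and fell by 3.40 (SE 0.68, adjusted p = 8.8e-04). P4ha1 read 0.11, 1.95, -0.62, -1.80, 0.48 and 1.15 at E9.5, its highest library lying just under the lowest E8.5 value of 2.03, and fell by 2.17 (SE 0.60, adjusted p = 0.04). That call was lost with the 5th percentile of the arrays as a term (-1.76), and P4ha1 and Egln1 each lost it when any of 7 of the 11 libraries was left out. Pfkp, the platelet-type phosphofructokinase gene, read 3.36, 2.88, 1.73, 1.85 and 1.95 at E8.5 and 0.42, 0.88, 0.53, 0.70, -0.16 and 0.41 at E9.5. The groups were well apart, and Pfkp fell by 1.89 (SE 0.26, adjusted p = 1.3e-07), 3.7-fold. When these 2 groups were fitted alone, Pfkp was the 1 gene still called.

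From E9.5 to E10.5, Pgam1 went from 0.12, 1.21, 0.00, 0.04, -0.24 and -0.47 to the nasal values above and fell by 2.68 (SE 0.44, adjusted p = 1.7e-04), 6.41-fold. Cranial mesenchyme replicate 2 was the highest, and lateral nasal eminence replicate 3 overlapped with the E9.5 range. Pfkl read 0.11, 1.47, 0.00, 0.23, -2.03 and 0.09 at E9.5 and fell by 2.13 (SE 0.57, adjusted p = 0.02), with overlap through cranial mesenchyme replicate 5 and lateral nasal eminence replicate 3. Tpi1 read 0.14, 0.97, 0.00, -0.14, -0.73 and -0.25 at E9.5, -1.08, -3.14, 0.00 and -2.47 in lateral and -2.42, -2.14, -1.75 and -2.21 in medial nasal tissue, and fell by 1.90 (SE 0.32, adjusted p = 2.1e-04). Ldha was the 1 gene of the set without overlap, as was so for 0.441% of all genes, and fell by 1.63 (SE 0.31, adjusted p = 9.7e-04). When the groups compared were fitted alone, limma called none of the 37 genes. With the 5th percentile of the arrays as a term, Pfkl (-1.18) and Pkm (-1.07) were no longer called and Pgam1 differed by -1.78. The call of Pfkl was also lost without cranial mesenchyme replicate 2, lateral nasal eminence replicate 4 or medial nasal prominence replicate 2.

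The change from E8.5 to E10.5 differed between the tissues for 15 of 37 genes, where 5.39% of all genes were called in the same interaction contrast. For 13 of the 15, the neural change minus the mesenchymal change was above 0, and for Slc2a3 and Eno2 it was below 0. P4ha1 differed by 2.94 ± 0.68 (adjusted p = 0.0049), having -0.62 ± 0.37 in neural tissue and -3.56 ± 0.57 in mesenchyme. For Pgam1 it was 2.80 ± 0.56 (adjusted p = 7.4e-04) and for Bnip3l 2.72 ± 0.75 (adjusted p = 0.022). Tpi1 (2.34 ± 0.40, adjusted p = 5.0e-05), Adm (2.33 ± 0.29, adjusted p = 2.9e-08) and Pfkp (2.14 ± 0.29, adjusted p = 1.2e-07) had the smallest p-values. Slc2a3 showed the reverse, -1.82 ± 0.36 (adjusted p = 7.8e-04), its fall being larger in neural tissue. For Slc2a1 (0.78 ± 0.67, adjusted p = 0.49) and Slc16a3 (0.43 ± 0.32, adjusted p = 0.42) no difference between the tissues was detected. With the 5th percentile as a term, 7 genes were called: Adm, Pfkp, Tpi1, Pgam1, Pgk1, Aldoa and Slc2a3. P4ha1, Bnip3l, Bnip3, Pfkl, Pkm, Ldha, Egln1 and Eno2 were not. Without that term, the different Bnip3 probe set gave 1.05 in the interaction contrast and did not pass (adjusted p = 0.057).

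At E8.5 the tissues were set apart by 3 genes of the 37, where 2.4% of all genes were called. Slc2a3 was higher in the 13 neural libraries than in the 5 mesenchyme libraries by 2.05 (SE 0.28, adjusted p = 8.1e-08), 4.15-fold, and the tissues overlapped, mesenchyme replicate 1 lying above floor plate replicates 1 and 2 and non-floor plate replicate 5. Adm and Pfkp were higher in mesenchyme, and for these 2 genes the tissues did not overlap, as was so for 0.747% of all genes.

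Adm encodes adrenomedullin, a peptide that acts on vessels. It read 3.22, 1.54, 1.25, 0.36 and 3.00 in E8.5 mesenchyme and had a lowest of -0.32, a median of -0.14 and a highest of 0.13 in the neural libraries. All 5 mesenchyme libraries lay above every neural one, replicates 1 and 5 by far and replicate 4 narrowly. Adm was lower in neural tissue by 1.98 (SE 0.23, adjusted p = 3.5e-10), 3.95-fold. Elsewhere Adm stood near 0, apart from underlying lateral neuroepithelium replicate 3 at 2.64 and control neuroepithelium replicate 4 at 1.60. Pfkp had a lowest of -0.21, a median of 0.38 and a highest of 1.43 in the neural libraries and was lower there by 1.96 (SE 0.22, adjusted p = 2.2e-10), 3.88-fold. Endothelial markers also separated these tissues, between 1.04 and 1.73 in mesenchyme and between -0.38 and -0.01 in neural epithelium. Their part in the Adm and Pfkp differences was not tested.

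At E9.5 limma called none of the 37 genes between neuroepithelium and cranial mesenchyme, where 1.15% of all genes were called. At an unadjusted p under 0.05 there were 3, and the smallest adjusted p was 0.35. A call was made for 1 gene when arrays were weighted by their quality. Neural markers ran from -0.78 to 0.73 in the cranial mesenchyme libraries and from 0.80 to 1.52 in neuroepithelium. Mesenchyme markers ran from 1.61 to 2.80 and from -0.88 to 0.20 in the same groups. The part of mixed captures in the absence of calls was not tested.

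At E10.5 the neuroepithelium underlying the nasal prominences stood above the nasal tissue beside it in 14 of 37 genes and below it in 1, where 20.9% of all genes were called, 14.9% as higher and 5.98% as lower. Of the 14, 3 were genes of the first steps, 3 of the later steps, 5 of the hypoxia response, and the others were Slc2a1, Ldha and Hif1a. Bnip3 was among the 5, but a different Bnip3 probe set gave 0.24 (adjusted p = 0.54), so its call rests on 1 probe set. Vegfa was the gene that was lower, by 0.44 (SE 0.14, adjusted p = 0.022).

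Bnip3l read 0.52, -0.08, -0.06 and -0.57 under the lateral and 0.00, 1.01, 0.57 and 0.12 under the medial prominence. In the lateral nasal eminence it read -0.09, -4.36, -0.83 and -4.04 and in the medial nasal prominence -4.24, -3.98, -1.33 and -1.22. The nasal libraries split into 4 near -4 and 4 between -1.33 and -0.09, of which lateral replicate 1 lay within the neural range. Bnip3l was higher in neural tissue by 2.70 (SE 0.55, adjusted p = 2.8e-04). Pgam1 read 0.32, -0.50, -0.12 and -0.49 under the lateral and 0.18, 0.42, 0.79 and 0.15 under the medial prominence, and was higher by 2.66 (SE 0.41, adjusted p = 1.7e-06), 6.33-fold. Only nasal replicate 3 of the lateral eminence overlapped. Tpi1 read 0.54, -0.13, 0.12 and -0.25 and 0.61, 0.84, 0.85 and 0.73 in the same neural groups and was higher by 2.31 (SE 0.30, adjusted p = 8.6e-09), with that same nasal library overlapping. Pgk1, which makes the first ATP of glycolysis, was the 1 gene without overlap, as was so for 1.59% of all genes, and was higher by 1.58 (SE 0.21, adjusted p = 2.1e-08).

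The 5th percentile of the arrays had medians of -0.52 in this neuroepithelium and -1.63 in the nasal tissue. With it as a term, 7 genes were called, all higher in neural tissue: Aldoa, Bnip3l, Ldha, Pgam1, Pgk1, Pkm and Tpi1. Slc2a1, Pfkl, Hif1a, Bnip3, Ankrd37, P4ha1, Kdm3a and Vegfa were no longer called.

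In E9.5 epidermal ectoderm 15 of 37 genes were lower and 4 higher than in the mandibular and maxillary arches, where 37% of all genes were called, 23.3% as lower and 13.6% as higher. No gene of the set separated the 7 ectoderm from the 10 arch libraries without overlap, where 0.943% of all genes did. Pfkl had a lowest of -2.58, a median of -0.77 and a highest of 1.19 in ectoderm and a lowest of -0.77, a median of 1.16 and a highest of 2.61 in the arches, and was lower by 2.05 (SE 0.52, adjusted p = 0.0019). P4ha1 had a lowest of -1.72, a median of -0.44 and a highest of 1.41 in ectoderm and a lowest of -1.02, a median of 1.32 and a highest of 2.52 in the arches, a difference of -1.75 ± 0.49 (adjusted p = 0.0045). Slc16a1 had a lowest of -0.77, a median of -0.22 and a highest of 0.90 against a lowest of -0.39, a median of 0.97 and a highest of 2.59, a difference of -1.41 ± 0.35 (adjusted p = 0.002). Each pair overlapped widely, ectoderm replicate 5 being high for Pfkl and P4ha1 and replicate 1 for Slc16a1.

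The 4 genes higher in ectoderm, a smaller share than that of all genes, were the hydroxylase Egln3 (0.89, SE 0.37, adjusted p = 0.047), Vegfa (0.63, SE 0.14, adjusted p = 6.3e-04), Eno2 (0.33) and Epas1 (0.24). Egln3 ranged from -0.16 to 3.63 among the ectoderm libraries, and its call was lost when any of 9 of the 17 libraries was left out. The ectoderm arrays had a 5th percentile with a median of -1.16 and a range of -3.53 to -0.54, against a median of -0.42 in the arches. With it as a term only Pfkm (-0.93), Pfkp (-0.80) and Egln3 (1.27) were called, and Aldoa turned sign, from -0.63 to 0.030 (adjusted p = 0.94). Without ectoderm replicate 7, 12 genes were called. With the conflicting sample counted as epidermal ectoderm, 16 genes were called, 15 as lower and 1 as higher. Counted as mandibular arch, it gave 19 called genes, 15 as lower and 4 as higher. Endothelial markers were also lower in ectoderm, between -0.21 and 0.56 against 0.29 to 1.53 in the arches, which hold mesenchyme and vessels as well as epithelium, and their part was not tested.

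**Figure D5:**
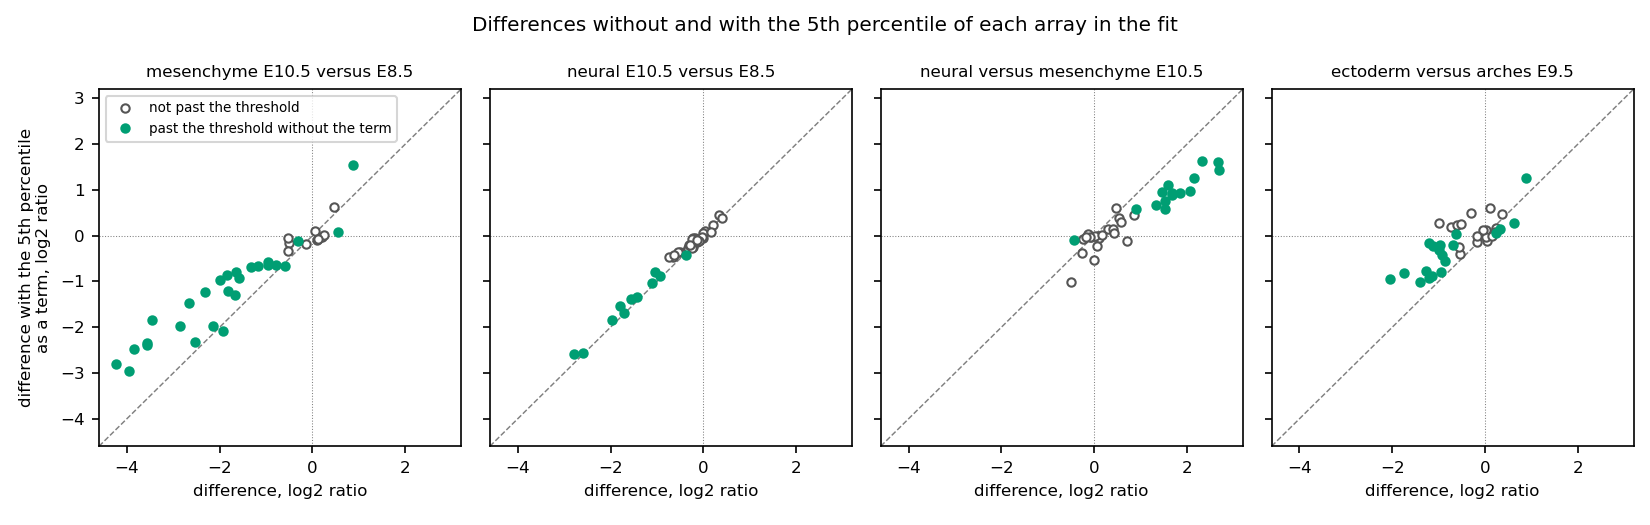
Difference in log2 ratio for each of the 37 genes in the fit as reported (horizontal) and with the array's 5th percentile added as a term (vertical), in 4 comparisons. Points on the dashed line are equal in both. The neural E10.5 versus E8.5 points stay near the line, and many mesenchyme points lie nearer 0 with the term, such as Pfkl, from -4.24 to -2.81, while Ldhb goes from 0.88 to 1.55.

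On the probe sets used, no gene of the set passed between the placode derivatives and ectoderm. A different Ldhb probe set did pass in limma, higher in the otic vesicle than in E9.5 ectoderm by 2.04 (SE 0.49, adjusted p = 0.028). Limma called 0 of 37 genes between otic vesicle and E9.5 ectoderm (0.391% of all genes were called), 0 between olfactory pit and E10.5 maxillary arch ectoderm (0.687%) and 0 between Rathke's pouch and that ectoderm (1.63%). By direction, 0.0802% of all genes were lower in the otic vesicle and 0.507% higher in the olfactory pit. Ldha was the 1 gene without overlap between otic vesicle and ectoderm, at 0.91 ± 0.32 (adjusted p = 0.21), as was so for 0.125% of all genes, and Bnip3l the 1 between olfactory pit and ectoderm, at -0.79 ± 0.78 (adjusted p = 0.9), as was so for 5.49%. At an unadjusted p under 0.05 there were 10, 2 and 6 genes, and the smallest adjusted p-values were 0.092, 0.44 and 0.068. With the 5th percentile as a term, 1, 3 and 3 genes were called. They were Egln3, lower in the otic vesicle, then Tpi1, Pkm and Ldha, lower in the olfactory pit, and Aldoa, Tpi1 and Pgk1, lower in Rathke's pouch. Captures of the E9.5 groups were uneven. Among the 6 otic vesicle libraries, the mean of the otic markers ran from -0.53 to 2.51 and that of the neural markers from -0.03 to 1.65. Mesenchyme markers ran from -0.75 to 1.00 among the 7 ectoderm libraries. The part of such mixture in the absence of calls was not tested.

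Genes of neighbouring pathways were counted from further lists. In mesenchyme between E8.5 and E10.5, 9 of 23 other HIF pathway genes fell and 2 rose, where 22.2% of all genes were called as lower and 6.74% as higher. Stc2, which encodes a secreted calcium-regulating hormone, fell by 2.67 (SE 0.38, adjusted p = 3.0e-07), the phosphoglucomutase gene Pgm1 by 2.61 and the collagen lysyl hydroxylase gene Plod2 by 2.13. In the pentose phosphate pathway 4 of 6 genes fell and 1 rose, with Pgd at -2.74 ± 0.61 (adjusted p = 5.7e-04), Tkt at -2.12 ± 0.39 and Rpe at -1.46 ± 0.56. Of 11 genes of pyruvate dehydrogenase and mitochondrial pyruvate entry, 4 fell and none rose, led by the kinase Pdk3 (-4.59 ± 0.90, adjusted p = 1.2e-04), Dld (-2.65 ± 0.65) and Pdha1 (-2.15 ± 0.60). Of 10 genes of a further list around glycolysis, 3 fell (Tigar, Fbp1 and Adpgk). That list does not separate genes that promote glycolysis from genes that oppose it. The shares of the HIF pathway list and of the last 2 lists are alike and not far from that of all genes.

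In neural epithelium over the same stages 3 of the 23 HIF pathway genes fell, where 5.79% of all genes were called as lower: the adenylate kinase gene Ak4 by 1.44, Stc2 by 1.42 and Fam162a by 0.34. Of the further list around glycolysis, Tigar fell by 1.05 (adjusted p = 0.0065) and Adpgk by 0.74 (adjusted p = 0.0033). None of the pentose phosphate genes passed the test. Mpc1, a subunit of the carrier that brings pyruvate into mitochondria, was the 1 gene of its list that rose. Its 13 E8.5 libraries ranged from -3.94 to 0.02 and its 16 E10.5 libraries from 0.39 to 2.22, without overlap, as was so for 0.196% of all genes. It rose by 2.43 (SE 0.57, adjusted p = 0.0022), 5.37-fold.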

How the data were processed

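The members and gene lists were chosen with earlier results of these data known. The deposited values are linear ratios per probe set, and the submitters' processing notes name RMA and build mm9 without giving their role. Of 35557 probe sets, 28856 held values and 21789 of these had 1 gene symbol. Log2 of the ratio was taken with no pseudocount or filter, since the smallest ratio was 0.01. Group means over 102 samples in 22 groups were fitted with limma 3.58.1 in R 4.3.3 (lmFit, contrasts, eBayes), which leaves 80 residual degrees of freedom, and p-values were adjusted by Benjamini-Hochberg over 19938 genes. A call is an adjusted p under 0.05. Fold changes are 2 to the log2 difference.

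By the naming rule, any listed member could be named, library values were given in full for up to 3 called members of the largest difference in each comparison, and up to 3 called genes were named per further list. Replicate numbers did not pair the samples: in 0 of 38 pairs of groups did every same-numbered pair correlate above 0.1. The fit assumed by the design for log2 levels was kept for log2 ratios. The code was tested on simulated data. Alternatives were quantile normalization, array weights, the mean of probe sets, the array's 5th percentile as a term, the compared groups alone, the replicate block, the 11 widely spread arrays left out, the conflicting sample placed in either region, and each library left out. Averaging the most alike pair of arrays was chosen after seeing the data.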

Additional observations from a re-analysis of the deposited data

Results flagged for a closer look

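The check covered 119 sets of values, each of 1 gene, or of the median of the 37 genes, in 1 group of 4 to 7 libraries. In 7 sets a library had a gap to the nearest other that was large for the range of the set. Chance alone flags about 5% of sets, and the same libraries recur in many sets. P4ha1 read 0.46 in lateral nasal eminence replicate 3, against -1.70 to -1.51 in the other libraries of that group. Pgam1 read 1.21 in cranial mesenchyme replicate 2, against -0.47 to 0.12. Slc16a1 read 0.90 in E9.5 epidermal ectoderm replicate 1, against -0.77 to -0.14. Slc2a3 read 1.48 in control neuroepithelium replicate 4, against 0.01 to 0.18. The median of the 37 genes was -0.48 in E9.5 epidermal ectoderm replicate 7, against -0.13 to 0.07, 0.57 in E9.5 neuroepithelium replicate 1, against 0.00 to 0.08, and 0.51 in otic vesicle replicate 4, against -0.05 to 0.09.

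For 15 genes the change from E8.5 to E10.5 differed between neural epithelium and mesenchyme in limma's interaction contrast. The neural minus the mesenchymal change was 2.94 for P4ha1, 2.80 for Pgam1, 2.72 for Bnip3l, 2.45 for Pfkl, 2.38 for Bnip3, 2.34 for Tpi1, 2.33 for Adm and 2.14 for Pfkp. It was 2.00 for Pkm, 1.77 for Egln1, 1.63 for Ldha, 1.59 for Pgk1 and 1.46 for Aldoa. For Slc2a3 it was -1.82 and for Eno2 -0.57. A different Bnip3 probe set gave 1.05 in this contrast and did not pass (adjusted p = 0.057).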

How the results depend on the processing

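Counts are of the 37 genes called by limma. By setting, mostly the larger moves from the main count are listed, so a count not given here can still have moved. Without the 11 widely spread arrays, mesenchyme E10.5 versus E8.5 gave 23 (27 in the main fit) and neural versus mesenchyme E10.5 gave 11 (15). Ectoderm versus arches then gave 16 (19) and the difference in stage change 12 (15). With quantile normalization, mesenchyme E10.5 versus E8.5 gave 21, 17 as lower and 4 as higher. Quantile normalization gave 8 between neural E8.5 and E9.5, 14 between mesenchyme E8.5 and E9.5 and 0 between caudal and non-floor plate tissue, and it shifted the median of all genes by over 0.1 in mesenchyme E10.5 versus E8.5 alone, by 0.13. Array weights gave 14 (neural E9.5 versus E8.5), 3 (neural E10.5 versus E9.5), 16 (mesenchyme E9.5 versus E8.5), 11 (mesenchyme E10.5 versus E9.5), 5 and 1 (neural versus mesenchyme at E8.5 and E9.5), 1 (otic vesicle), 1 (Rathke's pouch) and 4 (caudal). The mean of probe sets gave 1 for the otic vesicle. The 5th percentile as a term gave 7 (neural E9.5 versus E8.5), 16 (mesenchyme E10.5 versus E8.5), 7 (neural versus mesenchyme E10.5), 3 (ectoderm versus arches), 1 (otic vesicle), 3 (olfactory pit), 3 (Rathke's pouch) and 7 (the difference in stage change). Aldoa in ectoderm versus arches turned sign, to 0.030.

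The compared groups fitted alone gave 13 and 0 for the earlier and later neural steps, 1 and 0 for the mesenchyme steps, 10 for ectoderm versus arches and 0 for caudal. With the replicate block added, which the labels do not support as a pairing, the counts were 11, 0, 0, 0, 0 and 0, and 20 in mesenchyme E10.5 versus E8.5.

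Leaving out each library gave 2 to 7 (neural E9.5 versus E8.5), 0 to 1 (E10.5 versus E9.5), 10 to 11 (E10.5 versus E8.5), 5 to 11, 6 to 10 and 23 to 27 (the same steps in mesenchyme), 3 to 4, 0 to 0 and 11 to 16 (neural versus mesenchyme by stage), 12 to 19 (ectoderm), 0 to 1 (otic), 0 to 0 (olfactory), 0 to 2 (Rathke's), 0 to 2 (caudal) and 10 to 15 (stage change). The neural E9.5 count was 7 without floor plate replicate 1 and 2 without neuroepithelium replicate 3 or 5. The mesenchyme E9.5 count was 5 without E8.5 replicate 2 or 5 or cranial mesenchyme replicate 5. The otic count was 1 without ectoderm replicate 4, 6 or 7. The Rathke's count was 1 without maxillary ectoderm replicate 2 and 2 without Rathke's replicate 3. The caudal count was 0 without caudal replicate 1 or non-floor plate replicate 2 or 5, and 2 without non-floor plate replicate 3, neither of them Eno2, whose call was lost there. The cause was not tested in any of these. Of single-gene results under other settings, 966 kept their direction and side of the threshold, 181 lost the call and 1 reversed. Signal over background is not in the deposited ratios and was not analysed here.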
